A study of Mus musculus with 6 samples.

Results

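Collagens are the triple-helical proteins of the extracellular matrix, and each gene encodes 1 chain of a trimer. Of 18124 genes with deposited counts, 37 had a symbol made of Col, a number, the letter a and a number, which is how they were chosen; the annotation used for symbols holds 44 such genes, and Col6a6, Col9a1, Col13a1, Col19a1, Col22a1, Col25a1 and Col26a1 were not listed. RNA was sequenced from mesenchymal stem cells of quadriceps muscle of male mice with genotype Col1-GFP, a reporter in which the collagen 1 promoter drives green fluorescent protein; cells from 6 mice were sorted as GFP-positive and Sca-1-positive, expanded, and used at passage 4. The control group (3 libraries) was kept for 72 hours in medium conditioned by wild-type bone marrow-derived macrophages. The senescent group (3 libraries) was kept as long in medium from such macrophages exposed to 300 µM hydrogen peroxide for 3 hours, again 3 days later, and then cultured for 14 days. For both groups the labels give 7 days of macrophage differentiation and 2 collections of medium, with a collection time of 48 hours. How long control macrophages were cultured between differentiation and collection is not stated. Neither is whether each library had its own animal or cell isolate. A p-value here thus reflects how these 6 libraries vary, which may be technical only.

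Fibrillar collagens (types I, II, III, V, XI, XXIV and XXVII here) form the banded fibres that carry tension in muscle connective tissue and tendon. Type IV collagen builds the sheet of basement membranes, types VI, VIII and X form beaded or hexagonal networks, and the FACIT collagens, which have interrupted helices, bind the surface of fibrils. Transmembrane collagens stay anchored in the cell membrane. Fibroblast-like cells of muscle make most of the fibrillar collagen of the tissue. The cells were sorted by a reporter of the type I promoter, and how far this sets the level of type I collagen was not tested.

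The libraries held about 17228200 to 21659400 estimated counts. Of the sort markers, Ly6a, the gene of Sca-1, was at 1206 ± 44.7 CPM (counts scaled to a common library size with edgeR's TMM factors) in control medium and 1235 ± 46.8 CPM in senescent medium (here and below ± after a CPM value is the SD, n = 3). The 7 markers of the sorted cells, Col1a1 among them, were all listed and summed to 7627 to 7709 CPM in control and 9757 to 10090 CPM in senescent medium, with 4 called higher and 1, Pdgfra, lower (265 ± 9.87 to 217 ± 2.06 CPM). Without Col1a1 the other 6 summed to 2273 to 2337 and 2318 to 2434 CPM. Many defining markers of other cells were absent: Ptprc, Adgre1, C1qa and Itgam of macrophages, Cdh5 of endothelium, Pax7, Myf5, Myod1 and Myog of myogenic cells and Sox10 of Schwann cells were not listed. The 5 listed macrophage genes of 9 summed to 18.95 to 21.97 CPM in control and 18.1 to 24.2 CPM in senescent medium, with 1 called higher and 2 lower; their part in the results was not tested. Des, the 1 listed myogenic gene of 5, rose from 1.41 to 1.89 CPM in control to 4.33 to 5.86 CPM in senescent medium, and 4 pericyte and smooth muscle genes, most of it Notch3 at 78.8 ± 0.952 and 78.6 ± 4.61 CPM, summed to 101.5 to 111.8 and 102.2 to 116.5 CPM, with 1 called in each direction. These are bulk samples, in which fewer cells of a type and less RNA per cell cannot be told apart.

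Collagen RNA took a larger part of the library in senescent macrophage medium. The 37 genes together took 2.07%, 2.12% and 2.12% of the counts in the control libraries and 2.62%, 2.74% and 2.75% in the senescent-medium libraries. The groups did not overlap, and the difference of 0.603 percentage points was larger than the spread between libraries (exact two-sided permutation test, p = 0.1, the smallest that 3 against 3 allows). Fibrillar genes accounted for most of it, going from 1.44% ± 0.0083 to 1.95% ± 0.0455 of the counts (SD, n = 3), and basement membrane genes went from 0.243% ± 0.00612 to 0.312% ± 0.011. The network genes (0.174% ± 0.00199 and 0.178% ± 0.00498) and the FACIT genes (0.247% ± 0.0188 and 0.264% ± 0.0132) had libraries that overlapped between the media (exact permutation p = 0.3 and 0.2). Within the collagen counts, the fibrillar part went from 68.3% to 72.0%, the network part from 8.25% to 6.58% and the FACIT part from 11.8% to 9.75%. Without the most abundant feature of the table, which took 4.97% ± 0.454 of the counts in control and 3.79% ± 0.876 in senescent medium, the difference was 0.599 percentage points, and with Col1a1, Col1a2 and Col3a1 left out of the collagen sum it was 0.209.

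**Figure D1:**
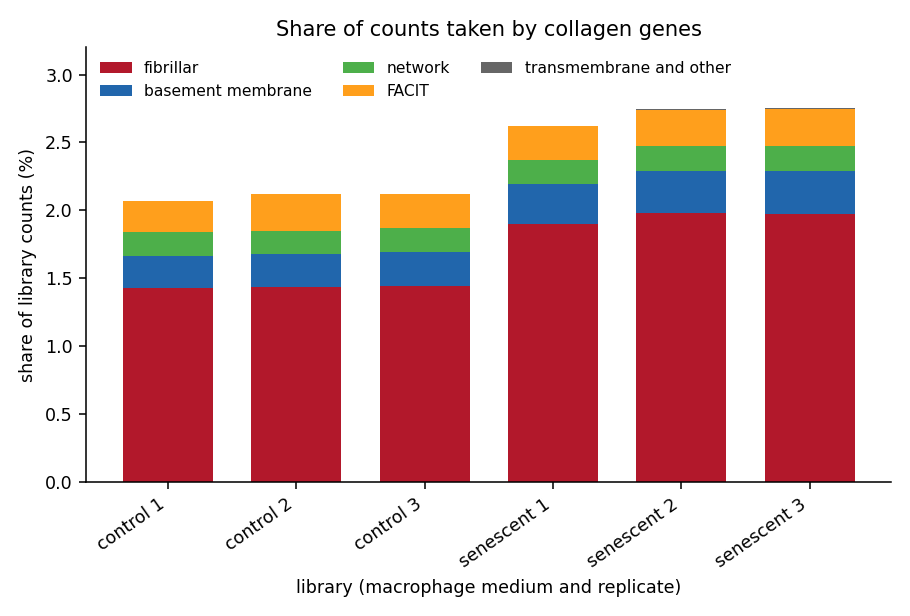
Share of each library's counts (%, y axis) taken by collagen genes, stacked by class, for the 3 control and 3 senescent macrophage medium libraries (x axis). The bars end between 2.07% and 2.12% in control medium and between 2.62% and 2.75% in senescent medium, and most of the difference lies in the fibrillar part.

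Of the 37 listed genes 32 passed the filter on low counts and were tested, 19 rose, 5 fell and 8 were not called (edgeR quasi-likelihood test, Benjamini-Hochberg adjusted p under 0.05 over all 14644 genes tested). Over all genes tested, 49.5% were called, 24.6% higher and 24.9% lower. Among the tested collagens 59.4% were higher and 15.6% lower. The counts per class below read against the same shares over all genes tested and over abundant genes. Abundant genes were called more often: of 1923 genes with a mean of at least 100 CPM, 45.6% were higher and 29.1% lower, and of the 13 collagens at that level 10 were higher and 1 lower. The median log2 fold change of the 32 collagens was 0.42, beside −0.001 over all genes tested, and 12 of the 24 called collagens changed by less than 1.5-fold. With libraries scaled by their totals alone 19 collagens were higher and 7 lower, where over all genes the share of higher calls among calls went from 49.7% to 35%. The libraries of the media did not overlap for 27 of the 32 (84.4%), beside 55.8% of all genes tested; 20 of them were higher in senescent medium, which 27.8% of all genes were. Called changes of at least 1 on the log2 scale were found for Col5a3, Col20a1 and Col10a1, 3 of the 32, and for 5.9% of all genes tested. Col20a1 passed the filter only through the senescent-medium libraries and Col17a1 only through the control libraries. The 5 genes that were listed but not tested, Col4a3, Col4a6, Col6a4, Col6a5 and Col9a2, had 0 to 10 counts per library.

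**Figure D2:**
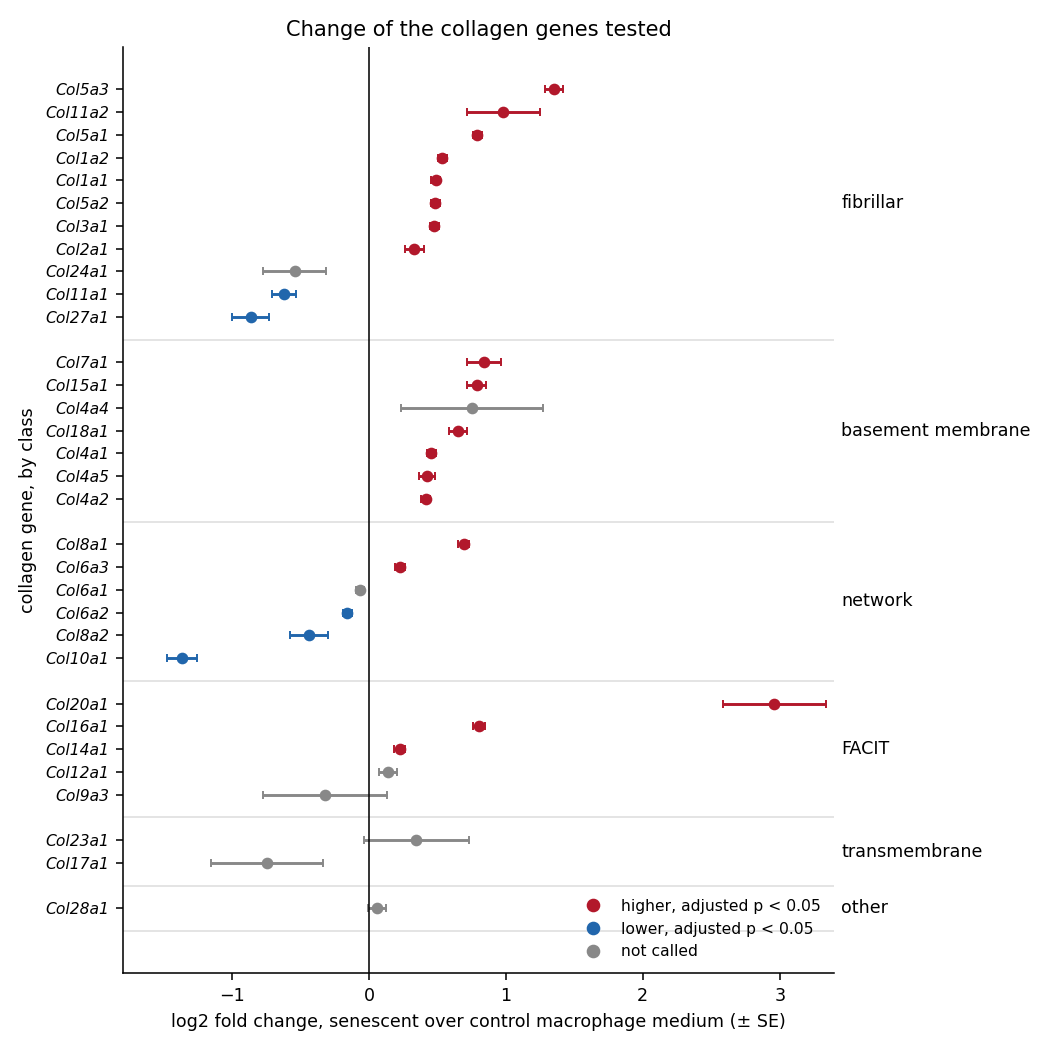
Log2 fold change, senescent over control macrophage medium, with its SE (x axis) for the 32 collagen genes tested (y axis, grouped by class). Red points are called higher, blue lower and grey not called (edgeR adjusted p under 0.05). Fibrillar and basement membrane chains lie mostly to the right of 0, network chains on both sides, with Col20a1 at 2.96 and Col10a1 at −1.37 as the extremes.

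The abundant fibrillar chains rose, while the scarcer ones moved both ways, with 2 of them called lower. All 11 genes of the class were listed and tested; 8 rose and 2 fell, and the median change was 0.48 on the log2 scale. The chains of type I collagen, the main protein of tendon, bone and muscle connective tissue, led the levels. Col1a1 (ENSMUSG00000001506) was at 5290, 5430 and 5362 CPM in the control libraries and 7322, 7768 and 7457 CPM in the senescent-medium libraries. Col1a2 (ENSMUSG00000029661), the other chain of the trimer, was at 2850, 2850 and 2867 CPM in control and 4044, 4256 and 4117 CPM in senescent medium. Col3a1 (ENSMUSG00000026043), whose homotrimer mixes with type I in extensible tissue, was at 3316, 3208 and 3222 CPM in control and 4588, 4536 and 4448 CPM in senescent medium. For all 3 genes every senescent-medium library lay above every control library. Their log2 fold changes were close to each other, 0.49 ± 0.033 for Col1a1, 0.54 ± 0.032 for Col1a2 and 0.48 ± 0.032 for Col3a1 (here and below ± after a log2 fold change is the SE; edgeR adjusted p = 1.27e-13, 6.43e-15 and 9.05e-14). Per kilobase of transcript these were the 3 highest collagens in both media, with Col1a1 at 904 and 1267 CPM per kilobase.

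Type V collagen, which co-assembles with type I, starts its fibrils and limits their width, rose in all 3 chains, and Col5a1 and Col5a3 had larger fold changes than the type I chains. Col5a1 (ENSMUSG00000026837) was at 1091, 1152 and 1145 CPM in control and 1891, 1999 and 1978 CPM in senescent medium, a log2 fold change of 0.79 ± 0.034 (edgeR adjusted p = 1.43e-18). Col5a3 (ENSMUSG00000004098), a chain of a less common type V trimer, was at 22.7, 25.8 and 21.4 CPM in control and 62.1, 57.2 and 59.5 CPM in senescent medium. The groups were far apart, and the log2 fold change was 1.35 ± 0.065 (adjusted p = 3.78e-17, edgeR), the second largest rise of the tested collagens. Col5a2, at 1276 ± 35.6 and 1786 ± 56.1 CPM, rose as type I did (0.48 ± 0.034). The order of levels stayed Col5a2 above Col5a1 above Col5a3 per kilobase of transcript in both media (193, 134 and 3.81 CPM per kilobase in control, 269.6, 233 and 9.74 in senescent medium).

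The chains of type XI, which takes the place of type V in cartilage fibrils, moved in opposite directions. Col11a1 fell, from 27.6, 28.3 and 29.5 CPM in control to 16.9, 21.95 and 16.8 CPM in senescent medium (log2 fold change −0.62 ± 0.086, edgeR adjusted p = 7.04e-07). Col11a2 rose at a low level, from 1.21 ± 0.216 to 2.39 ± 0.409 CPM (0.98 ± 0.27, edgeR adjusted p = 0.00267), on 19 to 26 counts per control library and 37 to 58 per senescent-medium library. Col2a1, the main fibrillar collagen of cartilage, rose from 35.1 ± 4.03 to 44.3 ± 2.38 CPM (0.33 ± 0.069). Col27a1, a fibrillar collagen of cartilage and growth plate, fell from 10.4 ± 1.86 to 5.71 ± 0.319 CPM (−0.86 ± 0.13). The related Col24a1 was at 3.04 ± 0.637 and 2.10 ± 0.539 CPM and missed the threshold (−0.54 ± 0.23, edgeR adjusted p = 0.052). It passed as lower without control replicate 1 or senescent-medium replicate 2 (−0.70 and −0.68, edgeR adjusted p = 0.0163 and 0.0401). It also passed with library totals alone (−0.62, edgeR adjusted p = 0.0273). Without senescent-medium replicate 1 the value was −0.34 (edgeR adjusted p = 0.269). Of 4 cartilage markers Acan was not listed, Matn3 had 2 to 9 counts per library, Sox9, a chondrogenic transcription factor, fell from 57.0 ± 2.88 to 38.9 ± 0.612 CPM, and Comp, at 67.5 ± 4.59 and 62.7 ± 2.02 CPM, was not called; the 3 listed ones summed to 117 to 129 CPM in control and 100.4 to 103 CPM in senescent medium. Their part in these results was not tested.

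Stretches before the start sites of Col3a1 and Col5a3 are shown because these fibrillar genes rose to unequal extents and their upstream sequences differ in base composition, with 35.2% and 62.8% G and C. They come from RefSeq on build GRCm38.p6, matched by symbol, and cover the 250 bases upstream of the start at chr1:45311288-45311537, plus strand, and chr9:20815068-20815317, minus strand. Capitals mark a CCAAT box (CCAAT or ATTGG), a GC box (GGGCGG or CCGCCC) or a TATA box (TATAAA or TTTATA), searched on both strands; a match is a string of letters, not a shown binding site.
Col3a1: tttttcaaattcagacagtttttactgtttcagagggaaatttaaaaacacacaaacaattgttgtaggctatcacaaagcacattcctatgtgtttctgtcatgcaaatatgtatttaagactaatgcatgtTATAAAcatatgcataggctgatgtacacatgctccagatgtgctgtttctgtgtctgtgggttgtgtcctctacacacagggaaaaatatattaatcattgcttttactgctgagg
Col5a3: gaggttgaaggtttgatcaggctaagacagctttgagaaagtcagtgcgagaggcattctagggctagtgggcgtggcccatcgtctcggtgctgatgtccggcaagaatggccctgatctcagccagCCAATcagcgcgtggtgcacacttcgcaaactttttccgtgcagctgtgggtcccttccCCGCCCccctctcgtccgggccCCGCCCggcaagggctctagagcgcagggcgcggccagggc
The Col3a1 stretch held 1 TATA box and no GC box, and the Col5a3 stretch held 1 CCAAT box and 2 GC boxes.

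Basement membrane collagens rose. Of the 9 genes of the class, with types VII, XV and XVIII counted to it, 7 were tested, 6 rose and 0 fell; the median change was 0.65 on the log2 scale. Col4a1 (ENSMUSG00000031502) and Col4a2 (ENSMUSG00000031503) encode the chains of the common type IV trimer, the scaffold of nearly every basement membrane. Col4a1 was at 1177, 1211 and 1216 CPM in control and 1601, 1659 and 1677 CPM in senescent medium (0.45 ± 0.032, edgeR adjusted p = 3.79e-13). Col4a2 was at 1019, 1057 and 1081 CPM in control and 1361, 1413 and 1431 CPM in senescent medium (0.41 ± 0.033, edgeR adjusted p = 6.64e-12). The groups did not overlap for either gene. In the GENCODE M21 annotation the genes lie head to head, with first exons that overlap by 22 bases on opposite strands; the strand setting of the counting is not given in the sources used here, and the overlap is under 1% of the exon length of either gene.

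The chains of the more restricted type IV trimers were scarce. Col4a5 (ENSMUSG00000031274), a chain of kidney, skin and smooth muscle basement membranes, was at 49.2, 55.4 and 57.9 CPM in control and 71.3, 76.3 and 70.6 CPM in senescent medium (0.42 ± 0.055, edgeR adjusted p = 1.96e-07). Its head-to-head neighbour Col4a6 had 3 to 10 counts in any library and was not tested. Of the other pair that lies head to head, Col4a3 was not tested and Col4a4, with 1 to 14 counts per library, was not called (0.75 ± 0.52). Col4a4 reached the filter level in 2 control and 3 senescent-medium libraries, so its values are a description with no p-value.

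The other collagens of the basement membrane zone had larger fold changes than the called type IV chains. Col15a1, a chain with heparan or chondroitin sulfate side chains that borders muscle and capillary basement membranes, rose from 22.3 ± 1.38 to 38.4 ± 1.89 CPM (0.79 ± 0.068). Col18a1, whose end piece is endostatin, rose from 26.2 ± 1.01 to 41.0 ± 1.98 CPM (0.65 ± 0.064). Col7a1, the anchoring fibril collagen, rose from 6.29 ± 0.959 to 11.3 ± 1.24 CPM (0.84 ± 0.13). For each of the 3 genes the libraries of the media did not overlap; whether their changes differ from those of type IV was not tested. Endothelial cells, which rest on a basement membrane, were sought with 4 markers. Cdh5 was not listed, and the other 3 summed to 23.5 to 26.0 CPM in control and 25.7 to 32.6 CPM in senescent medium. Most of it was Tek (23.8 ± 0.957 and 26.9 ± 2.99 CPM), which was not called. Kdr, the 1 called higher, was at 0.71 ± 0.176 and 1.68 ± 0.458 CPM, and Pecam1 had 0 to 5 counts per library. The part of these markers in the results was not tested.

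**Figure D3:**
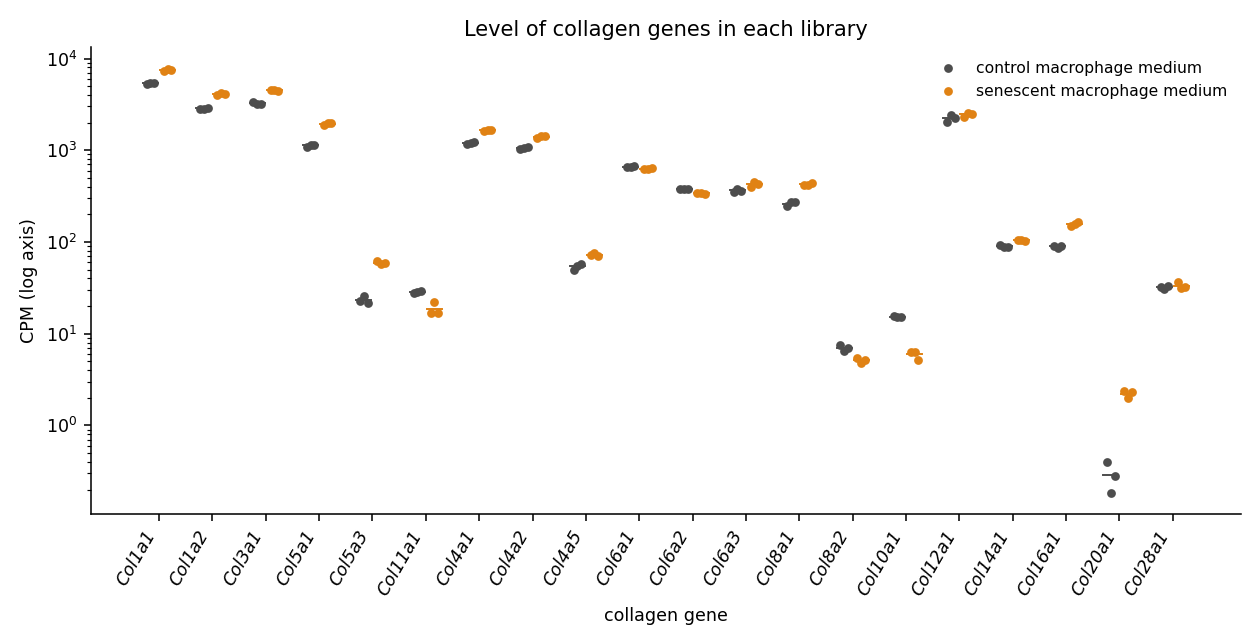
CPM on a log axis (y) for 20 collagen genes (x), with 1 point per library (grey, control macrophage medium; orange, senescent macrophage medium) and a line at the group mean. Chains of types I, III, IV and V and Col8a1 and Col16a1 lie higher in every senescent-medium library, Col8a2, Col10a1 and Col11a1 lie lower, and the points of Col12a1 and Col28a1 overlap.

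Network collagens moved both ways. Of the 9 genes of this class in the annotation 8 were listed, 6 were tested, 2 rose and 3 fell; the median change was −0.11 on the log2 scale. Type VI collagen forms beaded filaments around muscle fibres and stromal cells, and its 3 abundant chains changed little. Col6a1 (ENSMUSG00000001119) was at 660.5, 653 and 668 CPM in control and 625, 631 and 638 CPM in senescent medium. Col6a2 (ENSMUSG00000020241) was at 383, 374 and 376 CPM in control and 340.5, 341 and 333 CPM in senescent medium. Col6a3 (ENSMUSG00000048126), the long chain with many von Willebrand factor A domains, was at 353, 378 and 361 CPM in control and 402, 449.8 and 427 CPM in senescent medium. The libraries did not overlap for any of the 3, but the differences were small and not all of one sign. Col6a2 fell (−0.16 ± 0.033, edgeR adjusted p = 0.000171), Col6a3 rose (0.23 ± 0.038, adjusted p = 1.47e-05) and Col6a1 was not called (−0.066 ± 0.032, adjusted p = 0.0898), although it passed as lower with library totals alone (−0.15, adjusted p = 0.00038, edgeR). Col6a1 and Col6a2 are neighbours on the same strand.

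The short-chain collagens of types VIII and X, which form hexagonal lattices, diverged. Col8a1, the main type VIII chain of vessel wall and corneal membrane, rose from 245, 272 and 271 CPM in control to 413, 423 and 437 CPM in senescent medium (0.69 ± 0.039, edgeR adjusted p = 3.99e-15). Col8a2, the other type VIII chain, fell from 7.55, 6.41 and 6.97 CPM to 5.38, 4.85 and 5.19 CPM (−0.44 ± 0.14, edgeR adjusted p = 0.00964). Col10a1 (ENSMUSG00000039462), the collagen of hypertrophic cartilage, was at 15.6, 15.1 and 15.4 CPM in control and 6.38, 6.34 and 5.14 CPM in senescent medium. It fell in each senescent-medium library, with a log2 fold change of −1.37 ± 0.11 (edgeR adjusted p = 7.16e-12), and was the only collagen called lower by at least 1 on the log2 scale. Whether the change of Col10a1 relates to the cartilage markers given above was not tested.

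Upstream stretches of these 3 genes are shown because the genes share a protein family but not a direction of change. They are from RefSeq on GRCm38.p6, at chr16:57754738-57754987, minus strand, at chr4:126286544-126286792, plus strand, and at chr10:34389731-34389980, plus strand, with capitals as above.
Col8a1: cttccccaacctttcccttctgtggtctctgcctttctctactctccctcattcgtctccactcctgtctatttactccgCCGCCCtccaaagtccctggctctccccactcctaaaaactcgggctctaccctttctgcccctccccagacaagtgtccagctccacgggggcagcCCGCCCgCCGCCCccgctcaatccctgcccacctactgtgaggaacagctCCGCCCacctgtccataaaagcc
Col8a2: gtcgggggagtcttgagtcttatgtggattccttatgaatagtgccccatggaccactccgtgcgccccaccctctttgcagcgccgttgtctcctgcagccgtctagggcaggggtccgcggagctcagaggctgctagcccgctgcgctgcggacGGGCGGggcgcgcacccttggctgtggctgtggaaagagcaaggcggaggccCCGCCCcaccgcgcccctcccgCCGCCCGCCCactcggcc
Col10a1: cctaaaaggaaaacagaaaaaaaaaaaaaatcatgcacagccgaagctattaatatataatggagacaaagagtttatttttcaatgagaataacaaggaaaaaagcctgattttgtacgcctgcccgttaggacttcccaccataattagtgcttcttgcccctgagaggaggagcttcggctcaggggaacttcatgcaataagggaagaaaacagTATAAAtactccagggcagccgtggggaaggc
The Col8a1 and Col8a2 stretches each held 4 GC boxes, of which 2 overlap in Col8a2. Whether any of these matches bears on the changes in RNA was not tested. The Col10a1 stretch held 1 TATA box and no GC box. Over the 32 upstream windows of 250 bases that matched 30 of the 37 listed collagens, 62.5% held a GC box, beside 32.7% of 32817 such windows of all genes. A CCAAT box was in 34.4% and 33.8%, and a TATA box in 12.5% and 12.4%. Col1a1, Col2a1, Col4a3, Col5a2, Col9a3, Col12a1 and Col14a1 had no matching window. The windows of all genes were not limited to genes with counts here, and the reason for the GC box difference was not tested.

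Of the FACIT collagens 6 of 9 were listed, 5 tested, 3 rose and 0 fell. The 3 include Col20a1, whose call carries no weight for the reason given below. The median change was 0.22 on the log2 scale. Col12a1 (ENSMUSG00000032332), which links fibrils of tendon and muscle fascia and was the most abundant FACIT chain, was at 2028, 2421 and 2228 CPM in control and 2330, 2523 and 2506 CPM in senescent medium. Its libraries overlapped and it was not called (0.14 ± 0.065, edgeR adjusted p = 0.113), while its part of all collagen counts went from 10.9% ± 0.787 to 8.81% ± 0.227. It passed as higher without control replicate 2 (0.20, edgeR adjusted p = 0.000804) or senescent-medium replicate 1 (0.18, edgeR adjusted p = 0.043), while without control replicate 1 the value was 0.075 (edgeR adjusted p = 0.142) and with library totals 0.060 (edgeR adjusted p = 0.499). Col14a1 (ENSMUSG00000022371), a related regulator of fibril growth, was at 92.0, 88.7 and 87.6 CPM in control and 105, 106 and 102 CPM in senescent medium (0.22 ± 0.042, edgeR adjusted p = 5.33e-05). Col16a1 (ENSMUSG00000040690), which binds fibrils and microfibrils, was at 91.3, 87.0 and 90.9 CPM in control and 149.8, 157 and 163 CPM in senescent medium. Levels of Col14a1 and Col16a1 were alike in control medium, where per kilobase of transcript they stood at 15.8 and 17.2 CPM, and in senescent medium they stood at 18.4 and 30.1 CPM per kilobase. The log2 fold change of Col16a1 was 0.80 ± 0.042 (edgeR adjusted p = 2.61e-16).

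Col20a1 (ENSMUSG00000016356), a FACIT chain of little known function, had the largest log2 fold change of the tested collagens at a very low level. It had 7, 4 and 5 counts in the control libraries and 50, 37 and 48 in the senescent-medium libraries, or 0.287 ± 0.105 and 2.23 ± 0.226 CPM, a log2 fold change of 2.96 ± 0.38. Because it passed the filter on low counts only through the senescent-medium libraries, where it was high, its values are given as a description with no p-value, and its place among the 19 called higher carries no weight. Exons of another gene on the same strand overlap 1.54% of its exon length. Col9a3, a chain of cartilage type IX, was at 0.666 ± 0.283 and 0.533 ± 0.103 CPM and was not called.

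The transmembrane collagens were near the limit of detection. Col17a1, a hemidesmosome protein of epithelia, and Col23a1 had 9 to 23 counts per library and were not called (−0.74 ± 0.41 and 0.35 ± 0.38). The edgeR adjusted p of Col23a1 was 0.478. Because Col17a1 passed the filter only through the control libraries, where it was high, its values are a description with no p-value. Only a large change could be seen at this depth. Col28a1 (ENSMUSG00000068794), a collagen of peripheral nerve sheaths placed outside the classes, was at 32.2, 30.9 and 33.0 CPM in control and 36.3, 31.2 and 32.5 CPM in senescent medium and was not called (0.061 ± 0.067, edgeR adjusted p = 0.476). Schwann cell markers summed to 7.99 to 9.92 CPM in control and 9.98 to 10.3 CPM in senescent medium over 3 listed genes of 4, and 0 of the 2 tested were called.

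The ratio of chains within a library does not depend on how libraries are scaled. It was compared for 15 pairs of chains of the same trimer or of neighbouring types. For 10 of the 15 the groups did not overlap, and each of these 10 had an exact permutation p of 0.1, the smallest possible, and an adjusted p of 0.15 over the pairs. Single genes did not overlap for 55.8% of all genes tested, and the rate for other pairs of genes was not worked out. The count of 10 is thus a description only. Col1a1 to Col1a2 moved little: the log2 count ratio was 0.89, 0.93 and 0.90 in control and 0.86, 0.87 and 0.86 in senescent medium. Per transcript length this is 1.69 and 1.64 Col1a1 for each Col1a2; type I trimers hold more Col1a1 than Col1a2 chains. Col4a1 to Col4a2 stayed near parity as well, at 1.11 and 1.15 per length. Col3a1 to Col1a1 differed by −0.0093 in log2 ratio, with overlapping libraries (exact permutation p = 0.7), a value that changed sign without control replicate 1 (0.015) or senescent-medium replicate 2 (0.013).

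Ratios in type V and XI shifted further. The log2 ratio of Col5a1 to Col5a2 was −0.18, −0.17 and −0.19 in control and 0.12, 0.17 and 0.098 in senescent medium, a shift of 0.31, and that of Col5a1 to Col1a1 shifted by the same amount (0.31). In counts Col5a1 thus went from the scarcer to the more abundant of the pair in every library, while per length it went from 0.697 to 0.863 of Col5a2. Col5a3 to Col5a1 shifted by 0.56 and Col11a1 to Col5a1 by −1.42, from −5.30, −5.35 and −5.28 to −6.80, −6.51 and −6.88. Among network chains, Col8a1 to Col8a2 shifted by 1.13, from 31.7 to 69.4 Col8a1 for each Col8a2 per length, and Col6a3 to Col6a1 by 0.29. Col6a1 to Col6a2 and Col15a1 to Col18a1 shifted by 0.094 and 0.14, the latter by 0.079 without control replicate 1. Col4a3 and Col4a6 had at most 10 counts in a library, so ratios with them are imprecise, and Col4a3 to Col4a4 changed sign without control replicate 1 (0.48, beside −0.64 with all libraries), as did Col4a5 to Col4a1 (−0.027) without replicate 3 of either medium (0.014 and 0.0084).

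**Figure D4:**
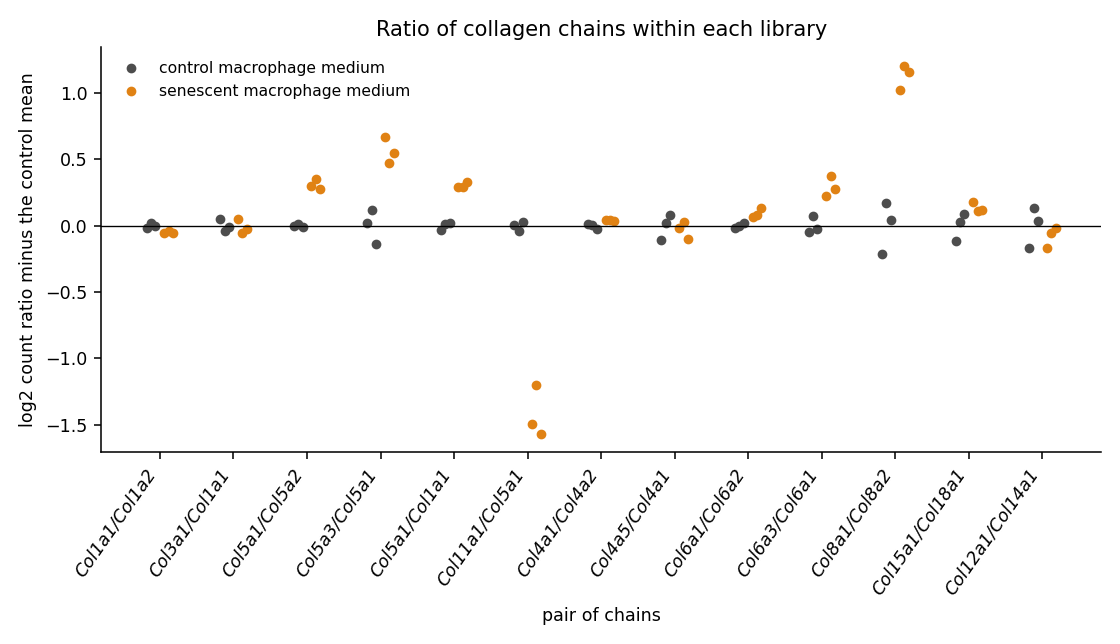
Log2 ratio of the counts of paired collagen chains in each library, minus the mean of the control libraries (y axis), for the 13 pairs with at least 50 counts of each chain in every library (x axis; grey control, orange senescent macrophage medium). Col8a1/Col8a2 is shifted up by 1.13 and Col11a1/Col5a1 down by 1.42, while Col1a1/Col1a2 and Col4a1/Col4a2 stay close to 0.

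Genes that process, bind or degrade collagen moved in both directions. Of 35 processing genes 33 were tested, 19 rose and 6 fell, with a median change of 0.098 on the log2 scale. P4ha3, Fkbp10, Mia3, Sec24d and Pcolce rose close to the threshold (edgeR adjusted p of 0.0385 to 0.045). With library totals alone 14 rose and 9 fell. At the stricter threshold 14 rose, with DESeq2 16, and with 1 library left out 14 to 18. Of the 25 called, 18 changed by less than 1.5-fold. Counts for these 3 lists read against 24.6% higher and 24.9% lower over all genes tested. Among genes with a mean of at least 100 CPM the shares were 45.6% and 29.1%. P4ha1, the catalytic subunit of a prolyl 4-hydroxylase that stabilises the helix, rose from 244 ± 4.51 to 399 ± 3.08 CPM (0.71 ± 0.034), and Plod2, a lysyl hydroxylase that sets the type of cross-link, from 121 ± 2.63 to 208 ± 5.71 CPM (0.78 ± 0.038). P3h4, a partner in lysine hydroxylation of collagen, fell from 186 ± 10.7 to 104 ± 3.93 CPM (−0.84 ± 0.043), and the cross-linking oxidase Loxl1 fell from 596 ± 5.06 to 452 ± 8.41 CPM (−0.40 ± 0.033). Of 10 receptor genes 8 were tested, 4 rose and 3 fell. Mrc2, which takes up collagen fragments, rose from 422 ± 11.9 to 677 ± 19.7 CPM (0.68 ± 0.034) and the integrin subunit Itga2 from 3.90 ± 0.748 to 10.1 ± 0.552 CPM (1.38 ± 0.14), while the collagen-binding integrin subunits Itga11 and Itga1 fell (−0.57 ± 0.052 and −0.72 ± 0.069). Of 10 degradation genes 4 were tested, 2 rose and 1 fell. Cathepsin K (Ctsk), which cuts within the triple helix, rose from 82.5 ± 3.60 to 186 ± 6.91 CPM (1.17 ± 0.042), the membrane collagenase Mmp14 rose (0.41 ± 0.034) and the gelatinase Mmp2 fell (−0.34 ± 0.035).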

How the data were processed

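Each of 6 libraries had about 600 ng of RNA sequenced in pairs of 150 bp (NovaSeq), as the labels' protocols state. The deposited values are estimated counts per Ensembl gene, not normalized; the submitters' processing notes list STAR, DESeq2 and mm39 without saying what each was for, and which tool counted, and whether by strand, is not stated in the labels. Counts were rounded. Symbols and transcript lengths (APPRIS principal transcripts) came from GENCODE M21 on GRCm38, which matched 18092 of 18124 identifiers by Ensembl identifier; as the builds differ, no gene coordinates are given beyond those of the RefSeq promoter windows. edgeR 4.0.16 in R 4.3.3 fitted all 14644 genes that passed its expression filter (quasi-likelihood F-test, robust dispersions, TMM scaling, medium as the only term, Benjamini-Hochberg adjustment over all of them, two-sided). The fit was first tested on simulated data with 50 genes changed at each of 1.2-, 1.5-, 2- and 4-fold and 14444 unchanged genes. Of the unchanged genes 25 were called, so false calls made up a share of all calls well above the nominal rate. As 49.5% of genes were called here, that share does not carry over to these data. Calls close to the threshold may still be less sure than their adjusted p. CPM uses TMM-scaled library sizes, and SE is the log2 fold change divided by the root of F. Chain ratios are log2 of counts plus 1.

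The members and lists were chosen with earlier results of these data known. Collagens were given library by library if they reached 1 CPM in a group and were among the 3 highest of their class, changed by at least 1 on the log2 scale, or were partners of such chains; Col8a1, Col8a2 and Col11a1 and the genes whose upstream sequences are printed were added after their values were seen. In pathway lists the 2 called genes with the smallest adjusted p in each direction were named. Alternatives were other scalings, DESeq2 1.42.0, limma-voom (limma 3.58.1), other filters, a stricter threshold, the replicate number as a block, and each library left out in turn.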

Additional observations from a re-analysis of the deposited data

How the results depend on the processing

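The counts of called collagens stayed at 19 or 20 higher and 5 to 7 lower under all 16 alternatives, and of 508 gene values under alternatives 497 kept their direction and side of the threshold, 8 were called only under the alternative, 0 lost a call and 3 changed sign. The median log2 fold change of the collagens was 0.34 with library totals and 0.37 to 0.45 with 1 library left out, where all 6 libraries and TMM gave 0.42; library totals shift the values of all genes by a median of −0.081, and gave 0.14 for Col14a1, −0.24 for Col6a2 and 0.15 for Col6a3, which stayed called. Without a filter on low counts 2 degradation genes were lower in place of 1. Sign changes came in values that were not called: Col28a1 was at −0.021 with library totals and −0.0059 to 0.11 with 1 library left out (negative without senescent-medium replicate 1), and Col9a3 at −0.57 to 0.0033 (positive without control replicate 1). With 1 library left out the shifts in log2 chain ratio ranged from −0.038 to 0.015 for Col3a1 to Col1a1, from −1.35 to 0.48 for Col4a3 to Col4a4 and from −0.079 to 0.014 for Col4a5 to Col4a1; the cause was not tested. Over all 14644 genes same-numbered libraries did not deviate together (r of 0.046, −0.003 and 0.011), and the main fit does not pair them. The share of counts taken by collagens rose with the replicate number in both media. It was 2.0684%, 2.1192% and 2.1215% in control and 2.6215%, 2.7444% and 2.7516% in senescent medium. Col3a1 did not rise with the number in either medium. Whether the collagens are paired by replicate number was not tested. With the replicate block 20 collagens were higher and 6 lower, Col12a1 and Col24a1 being called in addition (edgeR adjusted p = 7.45e-05 and 0.0415). The transmembrane chains, with 9 to 23 counts per library, could show only large changes at this depth.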
